A study of Mus musculus with 4 samples.

Results

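The genes described here are 10 that are used to follow the epithelial-mesenchymal transition (EMT): the cadherin genes Cdh1, Cdh2 and Cdh3, the epithelial adhesion gene Epcam, the intermediate filament gene Vim, and the transcription factor genes Snai1, Snai2, Zeb1, Zeb2 and Twist1. They were taken by symbol from the deposited matrix, and all 10 were found among its 24444 genes. The RNA was poly(A) RNA of oesophageal cells in culture, from the strain C57BL/6J, sequenced in 2 wild-type (WT) libraries and 2 libraries labelled Nrf2 HET. Per the labels, the WT cells carried no cassette and no treatment, and the HET cells came from CRISPR/Cas9 microinjection with the Nfe2l2-E79Q cassette. Nfe2l2 encodes NRF2, which activates genes of antioxidant defence and detoxification, and E79Q is a tumour-derived substitution in it. The HET libraries are called E79Q below. Every column name of the matrix carries the word SV40, which the labels do not explain. The sources used here do not give the age of the mice or the number of animals or cultures behind each library, so the p-values measure only the spread between these libraries, which may be technical. Libraries were compared by replicate number.

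In EMT, epithelial cells lose cell-cell adhesion and gain traits of motile mesenchymal cells. E-cadherin, encoded by Cdh1, holds neighbouring epithelial cells together at adherens junctions, and its replacement by N-cadherin, encoded by Cdh2, is known as the cadherin switch. Proteins of the SNAIL, ZEB and TWIST families repress Cdh1 and other epithelial genes by binding E-boxes, short DNA motifs in their promoters. In stratified epithelia such as that of the oesophagus, basal cells also carry P-cadherin, encoded by Cdh3, and the SNAIL family member Snai2 is normally expressed in basal keratinocytes.

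The E-box that SNAIL and ZEB proteins bind, CACCTG on either strand (CAGGTG on the other), was looked for in the 250 bases before the start of each gene, because Epcam and Snai1 are among the genes these factors are known to bind. RefSeq promoters of the build GRCm38.p6 were matched for 5 of the 10 genes (Vim, Zeb2, Snai1, Twist1 and Epcam). The Epcam window holds 2 such E-boxes, which begin 187 and 19 bases before the start, and the Snai1 window holds 1, which begins 126 bases before it. None was found in the windows of Vim or Twist1 or in the 4 of Zeb2. Of all 32851 windows of this length, 17.2% hold at least 1. Epcam, Snai1 and, as the gene with the largest difference on the deposited log2 scale, Vim are printed 5′ to 3′ on the gene's strand, all on the plus strand, with the E-boxes in capitals. They lie at chr17:87635729-87635978 (Epcam), chr2:167537945-167538194 (Snai1) and chr2:13574061-13574310 (Vim).
Epcam: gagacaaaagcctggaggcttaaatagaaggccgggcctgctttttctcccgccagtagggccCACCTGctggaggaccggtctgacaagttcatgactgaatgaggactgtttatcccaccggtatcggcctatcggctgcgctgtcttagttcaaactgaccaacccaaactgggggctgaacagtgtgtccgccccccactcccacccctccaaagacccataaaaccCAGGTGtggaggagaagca
Snai1: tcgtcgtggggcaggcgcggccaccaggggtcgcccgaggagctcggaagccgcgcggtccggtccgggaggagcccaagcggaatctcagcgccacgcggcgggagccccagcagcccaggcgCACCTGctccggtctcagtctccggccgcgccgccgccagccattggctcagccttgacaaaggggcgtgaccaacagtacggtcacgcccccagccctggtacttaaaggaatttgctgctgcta
Vim: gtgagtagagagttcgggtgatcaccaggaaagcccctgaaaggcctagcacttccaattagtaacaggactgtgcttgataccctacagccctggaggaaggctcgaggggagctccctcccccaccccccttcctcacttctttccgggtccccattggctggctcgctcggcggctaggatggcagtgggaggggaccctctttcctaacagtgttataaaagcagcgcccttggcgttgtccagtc
A core of the element that NRF2 binds, TGACNNNGC on either strand, was found in 10.2% of all windows. Among the windows of the members it occurs in that of Twist1 alone, 85 bases before the start. These matches describe letters only, and binding was not measured.

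The mesenchymal members of the set were lower in E79Q cells, and the most abundant epithelial members differed by smaller amounts. Vimentin and N-cadherin mRNA fell by 1.62 ± 0.07 and 1.30 ± 0.06 (difference ± SE on the deposited log2 scale, n = 2 pairs). P-cadherin, EpCAM and ZEB2 mRNA fell by 0.22 to 0.45, SNAI2 (Slug) mRNA rose by 0.27, and E-cadherin and TWIST1 mRNA were not called. This scale flattens at low levels. By normalised counts (described below) ZEB2 mRNA was 3.43-fold lower, against 1.18-fold for P-cadherin and 1.17-fold for EpCAM. Of the 10 members, 8 were high enough to be tested, and 5 of these were called lower, 1 higher and 2 not called (limma with a replicate block, Benjamini-Hochberg adjusted p under 0.05 over the 10857 genes tested). Over all genes tested 40.4% were called, 18.9% lower and 21.5% higher. One of the 5, Zeb2, passed the filter on low values only through its WT libraries. Zeb1 and Snai1 lay under that filter and are described from their values and from a fit without it. In all 10 members the WT and E79Q values did not overlap, which also held for 79.2% of all genes tested. With 2 pairs the smallest two-sided p of an exact test is 0.5, and each call therefore rests on a spread pooled over genes. In these bulk samples, fewer cells of a type and less RNA per cell cannot be told apart.

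**Figure D1:**
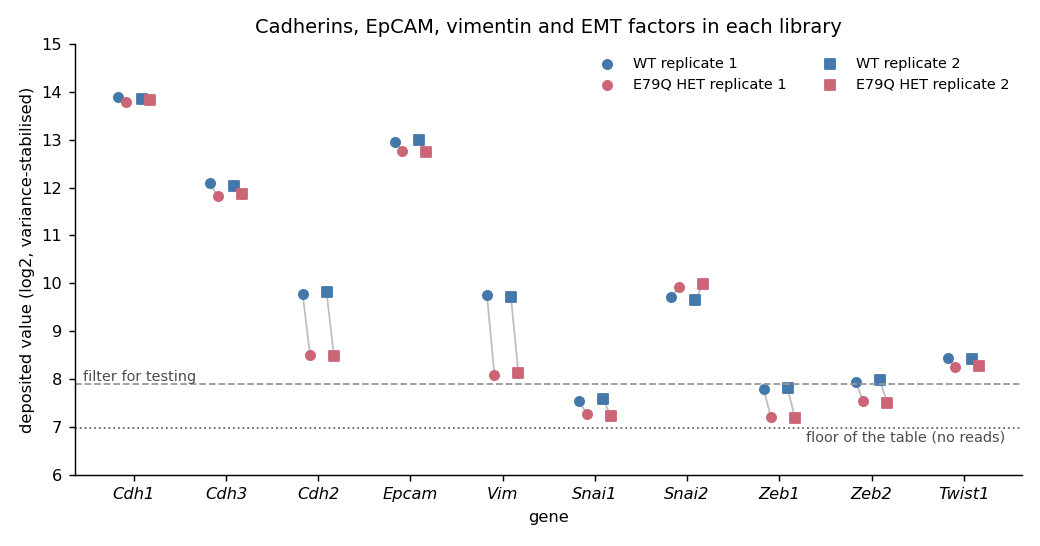
Deposited log2 value of each of the 10 genes (x axis) in each library (y axis); blue is WT, red is E79Q HET, circles are replicate 1, squares replicate 2, and grey lines join a replicate pair. The dotted line is the value of a gene with no reads and the dashed line the filter for testing; Vim and Cdh2 drop by more than 1 unit in both pairs, Snai2 is the only member that lies higher in E79Q, and Snai1 and Zeb1 lie under the filter in all 4 libraries.

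Across the series, the estimated depth ran from 12.6 to 15.2 M reads per library. The level of Nfe2l2 itself does not check a substitution. Its target Nqo1, a quinone reductase, had normalised counts of 186 and 189 in WT against 1645 and 1629 in E79Q, so the labels separate the libraries on an NRF2 target. Xist, the RNA of the inactive X chromosome, had normalised counts of 3809 and 4348 in WT and 6.25 and 1.19 in E79Q, while the Y-linked gene Ddx3y was read in all libraries (571 and 497 in WT, 823 and 934 in E79Q). Xist thus moves with genotype in the same 4 libraries, and its part in the differences below was not tested. The series' design text names a human breast cancer line. The title and the sample labels contradict it, and they were used here.

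Values of single libraries are given below in replicate order, as deposited log2 values and as normalised counts. The log2 scale flattens towards a floor of 6.98, the value of a gene with no reads. Normalised counts (reads divided by a library's size factor) undo this, and were computed by inverting the variance stabilisation. They are approximate, because the deposited values had already been centred on the replicate number, which also makes the deviations of WT and E79Q mirror each other within a pair.

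E-cadherin (Cdh1), the main adhesion molecule of epithelial junctions, lay at 13.90 and 13.86 in WT and at 13.78 and 13.82 in E79Q, or normalised counts of 15054 and 14628 against 13805 and 14208. Both E79Q values were below both WT values, by 0.12 in the first pair and 0.04 in the second. The difference of -0.08 ± 0.04 was not called (limma adjusted p = 0.153), and the mean normalised count was 5.62% lower. Among the alternatives that kept all 4 libraries, it was called only after quantile normalization (-0.11, limma adjusted p = 0.00295). It was not called without the replicate block (limma adjusted p = 0.0643), and its limma adjusted p ranged from 0.00295 to 0.284 over its alternatives. Leaving out either library of replicate 2 gave -0.10, and leaving out either of replicate 1 gave -0.06.

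P-cadherin (Cdh3), a cadherin of basal cells in stratified epithelium, lay at 12.09 and 12.04 in WT and at 11.82 and 11.86 in E79Q. It fell by 0.22 ± 0.05 (limma adjusted p = 0.00146), in both pairs, and its mean normalised count dropped from 4029 to 3417. Cdh3 and Cdh1 are neighbours on chromosome 8 of the RefSeq annotation of GRCm38.p6, with no protein-coding gene between them. Cdh3 minus Cdh1 was -1.82 in both WT libraries and -1.96 in both E79Q libraries on the deposited log2 scale.

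N-cadherin (Cdh2), the cadherin of neural and mesenchymal cells, lay at 9.79 and 9.81 in WT and at 8.51 and 8.48 in E79Q. Its normalised counts were 648 and 666 in WT against 157 and 150 in E79Q, so both E79Q libraries held less than any WT library. The fall of 1.30 ± 0.06 (limma adjusted p = 3.05e-10) corresponds to a 4.28-fold lower normalised count, 4.14-fold in the first pair and 4.43-fold in the second. Its difference ranked as number 11 from the lowest among the 10857 genes tested.

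The balance of the cadherins moved with Cdh2. Cdh2 minus Cdh1 was -4.12 and -4.05 on the deposited log2 scale in WT and -5.27 and -5.34 in E79Q. Per length, using the longest protein-coding transcript of GENCODE M21 for each gene, Cdh2 made up 2.996% and 3.165% of the summed normalised counts per kb of these 3 cadherins in WT and 0.826% and 0.770% in E79Q. Cdh1 made up 76.1% and 76.0% in WT and 79.6% in both E79Q libraries, and Cdh3 between 19.6% and 20.9% in all 4. E-cadherin was therefore the most abundant of these cadherin transcripts in both genotypes, and N-cadherin a small part that was smaller in E79Q. These shares are descriptions without a test.

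EpCAM (Epcam), an epithelial cell adhesion glycoprotein, lay at 12.96 and 12.98 in WT and at 12.76 and 12.74 in E79Q. It fell by 0.22 ± 0.04 (limma adjusted p = 0.000833), and its normalised counts of 7730 and 7853 in WT stood against 6689 and 6585 in E79Q. The 2 genotypes did not overlap, and the mean normalised count was 1.17-fold lower, close to the 1.18-fold of Cdh3.

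Vimentin (Vim), the intermediate filament of mesenchymal cells, showed the largest difference of the set on the deposited log2 scale. It lay at 9.75 and 9.71 in WT and at 8.09 and 8.12 in E79Q, and its normalised counts were 626 and 606 against 78.8 and 83.8. The groups were far apart. How close the replicates were before the values were centred on the replicate number cannot be read from them. Vim fell by 1.62 ± 0.07 (limma adjusted p = 3.13e-11), a 7.57-fold lower normalised count, 7.94-fold and 7.23-fold in the 2 pairs. Its difference ranked as number 4 from the lowest among the 10857 genes tested. Vim minus Epcam was -3.22 and -3.27 on the deposited log2 scale in WT and -4.67 and -4.61 in E79Q.

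**Figure D2:**
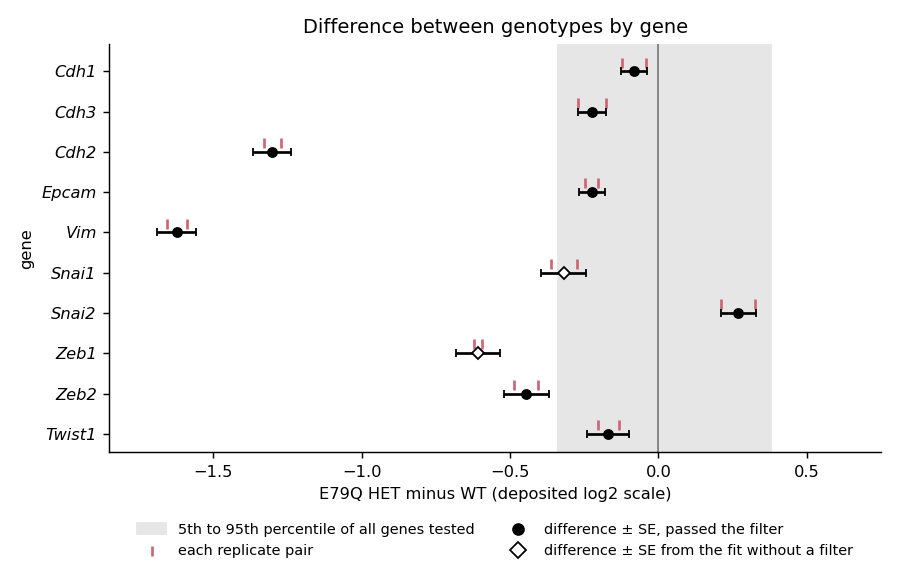
Difference E79Q HET minus WT on the deposited log2 scale (x axis) for each gene (y axis), with the moderated SE as a bar and each replicate pair as a red tick; filled circles passed the filter and open diamonds come from the fit without it. The grey band spans the 5th to 95th percentile of all genes tested (-0.34 to 0.38); Vim, Cdh2, Zeb1 and Zeb2 lie below it and Snai2 is the only gene to the right of 0.

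Among the transcription factors, Snai2, the SNAIL family member of basal keratinocytes, went the other way. It lay at 9.71 and 9.65 in WT and at 9.92 and 9.98 in E79Q, and its normalised counts were 605 and 573 against 735 and 774. It rose by 0.27 ± 0.06 (limma adjusted p = 0.00190), a 1.28-fold ratio of normalised counts, and was higher in both pairs.

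Snai1, the founding member of the same family and a repressor of Cdh1, was low in every library. It lay at 7.54 and 7.59 in WT and at 7.27 and 7.23 in E79Q, or normalised counts of 19.7 and 22.9 against 5.18 and 3.75. Both E79Q libraries were below both WT libraries. In the fit without a filter, where 11.2% of 16324 genes were called lower, its difference was -0.32 ± 0.08 (limma adjusted p = 0.0162). About 42 reads in WT and 9 in E79Q lie behind this, a 4.78-fold lower level with an exact 95% conditional binomial interval of 2.33 to 11.3, which covers counting error only.

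Zeb1, a zinc finger repressor of epithelial genes, had normalised counts of 41.4 and 42.8 in WT and 3.01 and 2.65 in E79Q, from deposited values of 7.79 and 7.81 against 7.20 and 7.19. It was near the floor in both E79Q libraries. The fit without a filter gave -0.61 ± 0.07 (limma adjusted p = 0.000533). About 83 reads in WT stood against 6 in E79Q, a 14.9-fold lower level with an exact 95% interval of 6.33 to 40.3 for counting error. By ratio this is the largest estimate of the 10 genes, but its interval overlaps those of Vim (6.45 to 8.98) and Snai1 (2.33 to 11.3), so their order is not settled. On the deposited log2 scale the difference of Zeb1 is smaller than that of Cdh2.

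Zeb2, its close relative, lay at 7.94 and 7.98 in WT and at 7.54 and 7.50 in E79Q, with normalised counts of 58.4 and 63.5 against 19.1 and 16.4. It fell by 0.45 ± 0.08 (limma adjusted p = 0.000244), a 3.43-fold lower normalised count (exact 95% interval 2.31 to 5.01 for counting error). Its WT values lay just above the filter at a distance of 1 from the lowest value, and its E79Q values under it. The stricter filter removed it from the test.

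Twist1, a basic helix-loop-helix factor of mesoderm, lay at 8.45 and 8.41 in WT and at 8.24 and 8.28 in E79Q, with normalised counts of 142 and 135 against 103 and 109. Both E79Q values were lower, by 0.20 and 0.13, but the difference of -0.17 ± 0.07 was not called (limma adjusted p = 0.0687). Among the alternatives that kept all 4 libraries, Twist1 was called lower without the replicate block (limma adjusted p = 0.0134), after median centring (0.0470) and without a mean-variance trend (0.0381). Its limma adjusted p ranged from 0.0134 to 0.103 over its alternatives.

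Per length, the factors were very unequal. Snai2 supplied 72.6% and 71.8% of the summed normalised counts per kb of the 5 factors in WT and 84.0% and 84.2% in E79Q. Twist1 supplied 21.2% and 21.0% in WT and 14.7% and 14.8% in E79Q. Snai1, Zeb1 and Zeb2 were minor in WT, at 3.26%, 1.80% and 1.66% on average, and smaller in E79Q, at 0.623%, 0.110% and 0.440%. The summed level of the 5 factors was 412 and 395 normalised counts per kb in WT and 433 and 455 in E79Q.

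**Figure D3:**
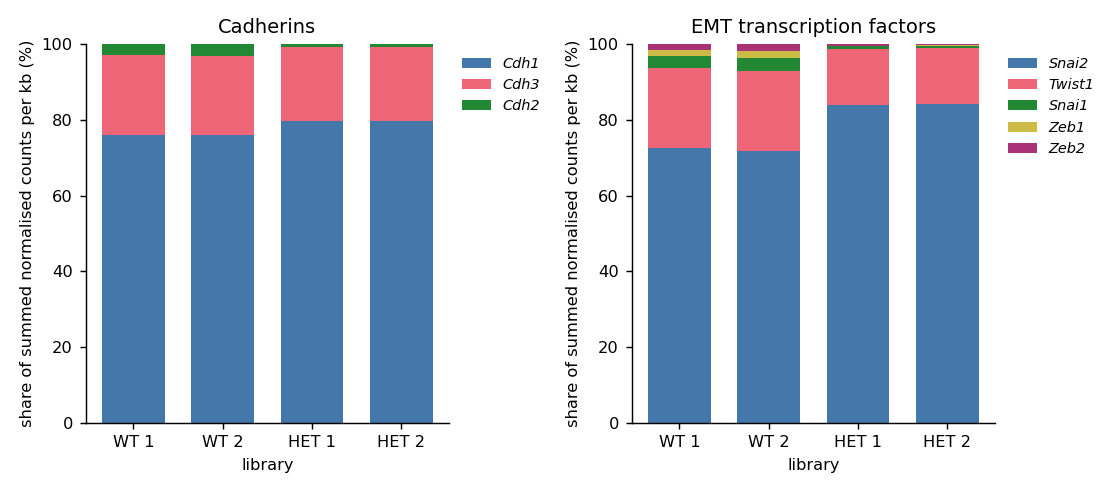
Share of the summed normalised counts per kb of transcript (y axis, percent) held by each cadherin (left) and each EMT transcription factor (right) in each library (x axis, WT and E79Q HET, replicates 1 and 2). Cdh2 shrinks from 3.08% to 0.798% on average, and Snai2 grows from 72.2% to 84.1%.

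In the order of levels per kb, Epcam came first in WT (3789 and 3849 normalised counts per kb), followed by Cdh1 (3398 and 3302) and Cdh3 (935 and 903). Snai2 (299 and 284) and Vim (285 and 277) came next, and their WT libraries overlapped. Cdh2 (134 and 137), Twist1 (87.3 and 82.9) and Snai1 (12.2 and 14.1) followed, then Zeb1 (7.14 and 7.38) and Zeb2 (6.40 and 6.96), which were close to each other. In E79Q the first 4 places were the same, but Twist1 (63.4 and 67.2) stood above Vim (35.9 and 38.2) and Cdh2 (32.3 and 31.0), and Zeb2 (2.09 and 1.80) above Zeb1 (0.518 and 0.457). Epcam (3279 and 3228) and Cdh1 (3116 and 3207) lay close together there, without overlap. The transcript length chosen for each gene sets these orders in part.

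The genes with the most similar pair of differences were found by the Euclidean distance in the differences of the 2 pairs. For Cdh2 these were Pcdh19, a protocadherin, Col8a1, a collagen chain, and Igf2, a growth factor, at distances of 0.03 to 0.07, with differences between -1.25 and -1.32. For Vim they were Clu, Glul and Gfra2, at 0.28 to 0.39. No gene lay within 0.05 of Vim and 1 lay within 0.05 of Cdh2. The smaller differences were not distinctive: 152 genes lay within 0.05 of Cdh3 (nearest Cep170, Snap23 and Uqcrb), 247 of Epcam (Ap4m1, Cldn23, Xylt2), 139 of Snai2 (Esyt2, Arpc5l, Ythdc2) and 36 of Zeb2 (Ccnf, Il22ra1, Rbm3). With 2 pairs of values, such likeness describes size on the deposited log2 scale only. That scale flattens at low levels, so Zeb2, with a 3.43-fold lower normalised count, stands among the smaller differences here.

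Among the partners of the cadherins at the junction, more genes were called lower than higher. Of 14 catenins and junction linkers, 13 were tested, with 6 called lower (46.2%, against 18.9% of all genes tested), 1 higher (7.69% against 21.5%) and a median difference of -0.06, against a median of 0.01 over all genes tested. Beta-catenin (Ctnnb1) and p120-catenin (Ctnnd1), which bind the cadherin tail, each fell by 0.20 ± 0.04 (limma adjusted p = 0.00210 and 0.00205), and plakoglobin (Jup) fell by 0.15 ± 0.04. Alpha-catenin (Ctnna1), which links them to actin, was at -0.02 ± 0.05 and was not called. The largest fall was in Nectin4, a nectin adhesion molecule (-0.48 ± 0.06), and afadin (Afdn), a nectin linker, rose by 0.26 ± 0.05.

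Few other cadherins of the classical and related subfamilies were read. Of 19 listed genes, 2 were tested, and 12 had normalised counts under 3 in all 4 libraries, 7 of them listed at 0. Cdh13, T-cadherin, which lacks the cytoplasmic tail, had normalised counts of 561 and 488 in WT and 942 and 1064 in E79Q, and rose by 0.72 ± 0.07 (limma adjusted p = 5.62e-07). Cdh24 fell by 0.29 ± 0.08. Cdh11, a cadherin of mesenchymal cells, was under the filter, with normalised counts of 9.06 and 9.27 in WT and 4.51 and 4.36 in E79Q. Cdh10, also under the filter, went the other way, with 22.5 and 23.2 in WT and 48.0 and 46.9 in E79Q. In the fit without a filter 2 of the list were called higher.

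Among EpCAM partners, 9 of 10 were tested, with a median of 0.06. Of these, 3 were called higher (33.3%, against 21.5% of all genes tested) and 2 lower (22.2% against 18.9%). The adhesion receptor Cd44 rose by 0.34 ± 0.06 and the tetraspanin Cd9 by 0.13 ± 0.05. Without the replicate block only 1 of the list was called higher, and Cd44 was not (limma adjusted p = 0.0535), and Cd9 was not called after median centring (0.0606) or quantile normalization (0.0832). In the other direction, Cd24a fell by 0.21 ± 0.05 and the sheddase Adam17 by 0.15 ± 0.05.

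Of 24 epithelial genes known to be lost in EMT, all were tested, with 11 called lower (45.8%, against 18.9% of all genes tested), 5 higher (20.8% against 21.5%) and a median of -0.14. The simple epithelial keratins Krt8, Krt19 and Krt18 fell by 0.94, 0.50 and 0.32, and the claudin Cldn3 by 0.63 ± 0.06. Another tight junction claudin, Cldn1, rose by 0.68 ± 0.07 (limma adjusted p = 2.34e-06), and desmoplakin (Dsp) rose by 0.23 ± 0.05.

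Transcription factors and splicing regulators that hold epithelial identity had a median of 0.09 over 14 tested. Of these, 5 were called higher (35.7%, against 21.5% of all genes tested) and 2 lower (14.3% against 18.9%). Klf4 and Klf5, zinc finger factors of epithelial cells, rose by 0.48 ± 0.06 and 0.44 ± 0.05, the grainyhead factor Grhl1 by 0.34 ± 0.07 and the splicing regulator Esrp1, a target that ZEB1 represses, by 0.28 ± 0.04. Elf3 and Foxa1 fell by 0.40 ± 0.05 and 0.26 ± 0.07. Grhl2 (0.09 ± 0.05), Ovol2 (0.02 ± 0.07) and Trp63 (0.10 ± 0.06), which oppose EMT or mark basal cells, were not called. Without the replicate block 4 of the list were called lower and Grhl2 was called higher (limma adjusted p = 0.00920).

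Other factors that promote EMT were mixed. Of 19 listed genes, 10 were tested, with a median of 0.14. Of these, 5 were called higher (50%, against 21.5% of all genes tested) and 2 lower (20% against 18.9%). Sox4 fell by 0.55 ± 0.06 and Tcf3, an E-protein that pairs with TWIST1, by 0.30 ± 0.06. Hmga2, a chromatin protein, rose by 0.48 ± 0.10, Foxq1 by 0.28 ± 0.07 and Tead1, the DNA-binding partner of YAP, by 0.22 ± 0.05. Hmga2 was not called without the replicate block (limma adjusted p = 0.111) or with robust empirical Bayes (0.185). The 15 cofactors and stability regulators of SNAIL and ZEB proteins were all tested, with a median of -0.07. Of these, 2 were called higher (13.3%, against 21.5% of all genes tested) and 4 lower (26.7% against 18.9%). Without the replicate block, and in each fit that left out a library, 4 were called higher. The deacetylase gene Hdac1 fell by 0.32 ± 0.05 and the corepressor gene Ctbp1 by 0.20 ± 0.05, while Csnk1a1, a casein kinase, rose by 0.31 ± 0.05 and Fbxl5, an F-box protein, by 0.26 ± 0.05. The miR-200 family and miR-205 target Zeb1 and Zeb2 as background, but Mir141, Mir200a, Mir200b, Mir200c, Mir429 and Mir205 are listed at the floor in all libraries of this poly(A) table, so nothing is read from them.

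Filaments other than keratins moved with vimentin in part. Of 12 listed genes, with lamins and vimentin partners, 7 were tested. Of these, 4 were called lower (57.1%, against 18.9% of all genes tested) and 1 higher (14.3% against 21.5%). Nestin (Nes), a filament that assembles with vimentin, fell from normalised counts of 516 and 536 to 271 and 259 (-0.64 ± 0.06, limma adjusted p = 8.73e-07). The lamins Lmnb2, Lmnb1 and Lmna fell by 0.48, 0.38 and 0.24, and plectin (Plec), which cross-links filaments, rose by 0.23 ± 0.05.

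Mesenchymal genes that rise in EMT were lower in E79Q. Of 24 listed genes, 16 were tested, with a median difference of -0.79. Of these, 14 were called lower (87.5%, against 18.9% of all genes tested) and 1 higher (6.25% against 21.5%). Of the 16, 6 (Tagln, Mmp2, Col1a1, Col5a1, Fgfr1 and Fstl1) passed the filter only through their WT libraries, so this count and this median overstate the list. Over the 10 that passed in all 4 libraries, 8 were called lower and 1 higher, with a median of -0.67. Col5a1, a fibrillar collagen chain, fell by 1.92 ± 0.07, from normalised counts of 479 and 476 to 19.7 and 20.0. Fibronectin (Fn1) fell by 1.30 ± 0.05, the collagen-binding protein gene Sparc changed by -1.29 ± 0.07 and tenascin C (Tnc) by -1.22 ± 0.05, all well above the filter in both groups. Itga5, the fibronectin receptor chain, was not called (0.01 ± 0.06), and Cd44 was the gene called higher, though not without the replicate block. The extracellular matrix and EMT genes of this list were known to be lower in these data when the list was written, so it is no independent support for the members.

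**Figure D4:**
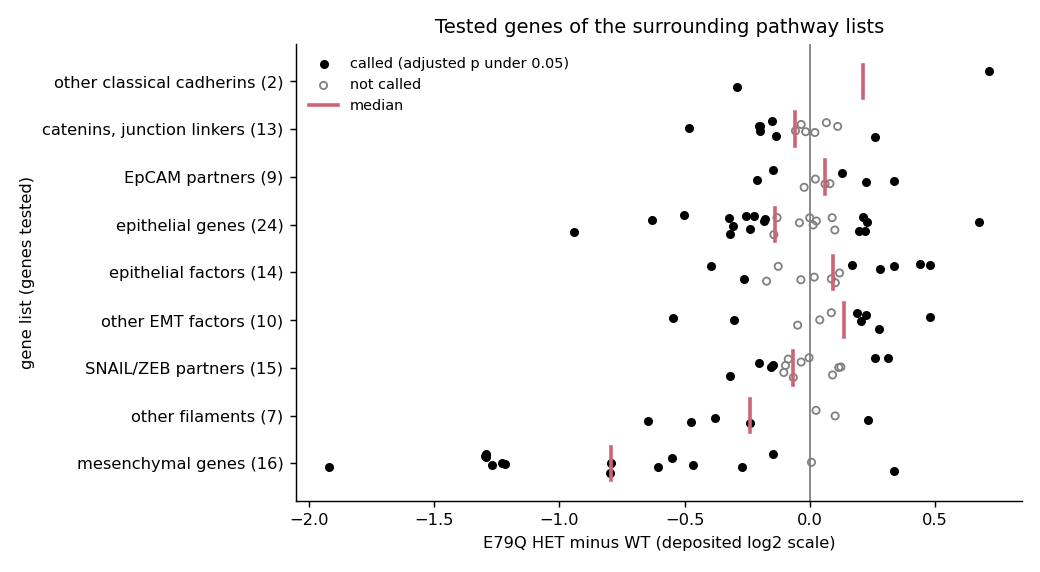
Difference E79Q HET minus WT on the deposited log2 scale (x axis) for each tested gene of 9 pathway lists (y axis, number tested in brackets); filled points are called, open points are not, red bars are list medians, and points are spread vertically only for legibility. The median of the mesenchymal genes is -0.79, or -0.67 over the 10 that passed the filter in all 4 libraries, and most points of the other lists lie nearer 0.

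Markers of other cell types were read beside these results. Basal keratinocyte markers were abundant. The basal keratin Krt5 lay at 15.85 and 15.80 in WT and 15.79 and 15.84 in E79Q, and the 11 markers had a median of 0.04. Of the 11, 4 were called higher (36.4%, against 21.5% of all genes tested) and 3 lower (27.3% against 18.9%). Suprabasal markers had 5 called higher (71.4% against 21.5%) and 0 lower (against 18.9%) of 7 tested, with a median of 0.49. Those called were Sbsn, Dsg3, Krt6a, Krt13 and Dsc2. Krt4 (-0.11 ± 0.07) and Mal (-0.06 ± 0.05) were not called, and Tgm3 was at 0 in all libraries. Of 14 fibroblast markers only Col1a1 passed the filter. The summed normalised count of the list was 471 and 477 in WT and 144 and 150 in E79Q, and 166 and 143 against 99.0 and 114 without Col1a1. Lum and Dpt were at 0 in all libraries. In E79Q, 4 of the 14 were lower without overlap (Col1a1, Col1a2, Col3a1 and Postn) and 3 higher. The 3 were Dcn, at 0 in WT and at 10.8 and 10.7 in E79Q, Col6a3 and Thy1, all at low counts. Of the 14, 6 also stand in other lists used here. Muscle markers summed to 1910 and 1870 in WT and 1137 and 1199 in E79Q, with Acta2 and Tagln called lower and Smtn not called of 3 tested, and Myh3 at 0. Acta2 alone went from 859 and 880 to 259 and 250, and both it and Tagln also stand in the mesenchymal list. At low counts under the filter, Des (0.132 and 0.448 against 4.04 and 2.90) and Myh11 (1.34 and 0.743 against 4.28 and 5.59) were higher in E79Q. Cnn1 and Acta1, also under the filter, were lower. Endothelial markers summed to between 229 and 247 in all 4 libraries, nearly all from Egfl7. Immune markers summed to 190 and 168 in WT and 377 and 415 in E79Q, nearly all from Cd68, with Ptprc, Adgre1, Cd3e and Tyrobp at 0. Neural crest and Schwann markers summed to between 14.99 and 24.90. The fibroblast and muscle sums moved in the same direction as Vim, Cdh2, Zeb1 and Zeb2, though single markers of both lists went the other way. Smtn, the most abundant muscle marker outside the mesenchymal list, overlapped between genotypes (918 and 834 in WT, 815 and 897 in E79Q). The 4 lower fibroblast markers, Acta2 and Tagln all stand in that list, so neither sum is independent of it. What part these sums have in those results was not tested.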

How the data were processed

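The authors deposited 1 matrix, which holds variance-stabilised expression on a log2-like scale. Tools listed in the submitters' processing notes are DESeq2, DESeq 1.22.2, Salmon 0.11.3 and STAR 2.5.2b, with the build mm9, and no role is stated for any. Groups and replicate numbers come from the sample titles. In every gene the WT and HET values of replicate 1 sum to those of replicate 2, to within 1.31e-13, so the deposited values had been centred on the replicate number, a step the labels do not record. Deviations of same-numbered libraries are then mirror images by construction, and the numbers pair the libraries for this reason only.

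A gene was tested where 2 or more libraries lay 1 unit or more above 6.90, the lowest deposited value (10857 genes). limma 3.58.1 in R 4.3.3 fitted genotype with the replicate number as a block, with eBayes and a mean-variance trend, two-sided, adjusted by Benjamini-Hochberg. Each gene has 1 residual degree of freedom of its own, against 14.6 borrowed from the other genes. Normalised counts came from inverting the variance stabilisation from the floor. Size factors came from genes read in 1 library only, 239 to 320 per library, whose values all gave whole reads within 0.001. The members and the gene lists (catenins and junction linkers, other cadherins, EpCAM partners, epithelial genes and factors, EMT factors, SNAIL and ZEB partners, filaments, mesenchymal genes, and cell type markers) were chosen with earlier results of these data known. Named genes are the members, up to 5 called genes of each list by size of difference, and the 3 genes nearest to each called member, leaving out predicted genes. Genes named without a call, Jup, Foxa1, Dsp, Tnc, Cdh10, Cdh11 and those named for the labels, markers or microRNAs were chosen after their values were seen. The alternatives tried were no replicate block, other filters, scalings and empirical Bayes settings, log2 of the normalised count plus 1, and leaving out each library (genotype alone, without the block).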

Additional observations from a re-analysis of the deposited data

How the results depend on the processing

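No member changed direction under any of the 12 alternatives tried that tested it, and Snai1 and Zeb1 entered only the fit without a filter. Without the replicate block 6004 genes were called against 4388 with it, and 6 members were called lower and 1 higher against 5 and 1, the added member being Twist1. Such a fit does not count the replicate term that centring had removed. It therefore understates the spread, and its extra calls carry less weight. The fits that left out each library in turn had no replicate block, since a block leaves them no residual degree of freedom. Because deviations mirror each other within a pair, leaving out the WT or the E79Q library of the same number gave the same difference. For Vim it was -1.61 without either library of replicate 1 and -1.64 without either of replicate 2. These fits are therefore not independent of each other. Across the other alternatives that kept all 4 libraries, 4 to 7 members were called lower and 1 higher. The stricter filter gave 4 and leaves Zeb2 and Twist1 untested, and no filter gave 7 and adds Snai1 and Zeb1. Quantile normalization added Cdh1. Median centring turned the split of all calls from 2333 higher and 2055 lower to 2048 and 2313, with a shift of -0.02 in the median gene. Calls in the gene lists stayed within 1.5 times in 364 of 384 recomputed counts, and 5 of the others are those of the SNAIL and ZEB cofactors called higher, 4 against 2. Low depth limits Zeb1, Snai1 and Zeb2, which rest on about 6, 9 and 37 reads in both E79Q libraries together. In the fits without a library the lone sample of a group is assumed to vary like the other group.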
